A study of Homo sapiens with 4 samples.

Results

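The transcripts of 52 genes that license, run and protect the DNA replication fork were followed after siRNA knockdown of circZFR in a lung adenocarcinoma cell line. The genes were given by name as a list of licensing, fork, checkpoint, Fanconi anemia, homologous recombination and nucleotide supply genes, and all 52 were among the 40205 genes listed per library. RNA-seq was available for 4 libraries, of which 2 came from cells given a negative control siRNA (NC 1, NC 2) and 2 from cells given siRNA against circZFR (si-circZFR 1, si-circZFR 2), each 24 h after transfection. circZFR is a circular RNA made from exons of *ZFR*, and the control is described as a scrambled sequence. The sample labels name the line H1299, whereas the study design and methods name A549. The aldo-keto reductase *AKR1B10*, abundant in A549, was at 1290 to 1710 scaled RPKM in the 4 libraries, and the name A549 was used. *AKR1C1*, *AKR1C2*, *AKR1C3*, *ALDH1A1*, *ALDH3A1* and *GPX2*, also chosen as A549 markers, had means of 140 to 1190. *FGA*, *FGB* and *FGG*, chosen as A549 markers too, were low, with means of 1.08 to 3.25 in NC and 2.24 to 6.05 in si-circZFR. The mesenchymal marker *VIM* had a mean of 580. These markers alone do not settle the line. The fibroblast markers *DCN* and *LUM* and the leukocyte markers *PTPRC* and *CD3E* were at 0 in every library. *COL1A1* was at 0.872 and 0.624 in NC and at 1.33 and 1.88 in si-circZFR, while *CD68*, which tumor lines also express, was at 54.9 to 82.7. Of the epithelial markers, *EPCAM* was at 0.394 and 0.410 scaled RPKM in NC and at 1.81 and 2.65 in si-circZFR (log2FC 1.19, FDR 0.0474). It passed the threshold given below, on few reads (4 and 4 against 18 and 28). *CDH1* was at 11.3 and 8.68 against 21.5 and 21.2 (log2FC 1.03, FDR 0.0539). The part of these markers in the results below was not tested.

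DNA replication starts when the origin recognition complex, CDC6 and CDT1 load the MCM2 to MCM7 ring onto DNA, which licenses an origin. CDC45 and the GINS complex then join the ring to form the active CMG helicase, and the sliding clamp, the polymerases and the single-strand binding protein RPA follow at the fork. Forks that stall are sensed by the ATR and ATM kinases and are protected or restarted by the Fanconi anemia and homologous recombination proteins. In proliferating tumor cells, many of these genes are transcribed at the border of G1 and S phase under E2F transcription factors. In RNA from a whole culture, fewer cells in S phase and less RNA per cell cannot be told apart.

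The promoters of the list carried an E2F word more often than promoters at large, and those of the helicase subunits at the centre of the results are shown for that reason. RefSeq promoters (GRCh38.p14, 250 bases before to 50 after the first start listed for a gene) were found for 46 of the 52 genes, all but *MCM4*, *MCM5*, *GINS4*, *RPA2*, *RPA3* and *FANCI*. An E2F word (TTTCCCGC, TTTGGCGC, TTTCGCGC or TTTGCCGC, on either strand, overlaps allowed) was present in 17 of these 46 (37.0%), against 908 of all 27305 promoters (3.33%) and 5.44% of the 9554 promoters of genes tested here. The 100-base windows below run from 70 bases before to 30 bases after the start, 5′ to 3′ on the strand of the gene, with the E2F words in capitals. They belong to the genes with p under 0.05 that held a word.
*MCM2*, chr3:127598341-127598440, plus strand: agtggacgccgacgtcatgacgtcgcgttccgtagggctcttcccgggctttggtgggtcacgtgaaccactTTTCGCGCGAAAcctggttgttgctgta
*MCM3*, chr6:52284713-52284812, minus strand: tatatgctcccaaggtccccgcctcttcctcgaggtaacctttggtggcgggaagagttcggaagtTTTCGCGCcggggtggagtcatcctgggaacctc
*MCM7*, chr7:100101368-100101467, minus strand: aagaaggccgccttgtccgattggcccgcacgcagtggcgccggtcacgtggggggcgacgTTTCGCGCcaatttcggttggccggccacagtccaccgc
*GINS1*, chr20:25407603-25407702, plus strand: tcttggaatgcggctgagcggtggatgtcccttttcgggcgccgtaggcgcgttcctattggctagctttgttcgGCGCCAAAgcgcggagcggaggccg
*GINS3*, chr16:58392401-58392500, plus strand: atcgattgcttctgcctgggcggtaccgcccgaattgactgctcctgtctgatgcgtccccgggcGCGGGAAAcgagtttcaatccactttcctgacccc
The other genes with a word were *CDC6*, *CDT1*, *MCM6*, *GINS2*, *PCNA*, *RFC3*, *POLA1*, *POLE*, *LIG1*, *FANCA*, *FANCD2* and *TYMS*. *MCM10*, *RFC5* and *TK1* had no match in their promoters. A CCAAT box (CCAAT) was present in 27 of the 46 promoters (58.7%), against 35.7% of all promoters and 36.7% of those of genes tested. The cell cycle homology region (CHR, TTTGAA), known from promoters of G2/M genes, was in 2 of 46 (4.35%). Its share was 15.4% of all promoters but 9.23% of those of genes tested. A match is only a match of letters and was not tied to binding of any factor.

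No gene of the list passed the threshold of limma (FDR under 0.05 and |log2FC| over 1) after circZFR knockdown, against 148 of the 14791 genes tested (1.0%). All 52 genes were tested, since each had reads above 1 CPM (counts scaled to the library total) in at least 2 libraries. The lowest FDR was 0.0992 (*MCM5*). The values hold no reads of the back-spliced junction, so the level of circZFR itself was not measured here. The host gene *ZFR* was at 25.8 and 32.5 scaled RPKM in NC and at 5.21 and 4.61 in si-circZFR (log2FC −2.34, SE 0.19, FDR 0.0149), a ratio of 0.168. Its gene-level value cannot tell reads of the linear transcript from those of the circle. For the genes below, effects of a lower circle and of a lower linear *ZFR* transcript therefore cannot be told apart. Whether the replicates came from separate cultures is not stated in the labels, so p-values measure only the spread between these libraries, which may be technical. Levels below are scaled RPKM (reads per transcript length and library total, then scaled between libraries), and log2FC is si-circZFR minus NC on log2(scaled RPKM + 1), which understates differences of low genes.

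Below the threshold, most of the list lay lower in si-circZFR, and the genes with the smallest p all did so. The log2FC was below 0 for 39 of 52 genes, against 49.7% of all genes tested. When the libraries were not scaled, it was below 0 for 25 of 52, against 33.9% of all genes. There the median of all genes was itself shifted to 0.15. The median log2FC was −0.17, against 0.00 over all genes tested and −0.13 relative to the shifted median without scaling. At unadjusted p under 0.05, 9 genes were lower (17.3%) against 11.8% of all genes tested, and 0 were higher against 10.5%. Both si-circZFR libraries lay below both NC libraries for 21 genes (40.4%) against 27.9% of all genes, and above both for 8 genes (15.4%) against 27.9%. The remaining 23 genes overlapped between groups. The median size of the log2FC, 0.222, was close to the median gap between the NC libraries (0.243), and only 20 genes differed between the group means by more than both replicate gaps. Reads behind a value ranged from 42 (*FANCB*) to 4150 (*MCM7*) per library. The 95% interval of a log2FC reached 0.439 to either side in the median. For a typical gene, differences below about this size thus did not reach even unadjusted p under 0.05 in limma. Larger ones could still miss the FDR, as *MCM5* did at −0.71 (FDR 0.0992).

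**Figure D1:**
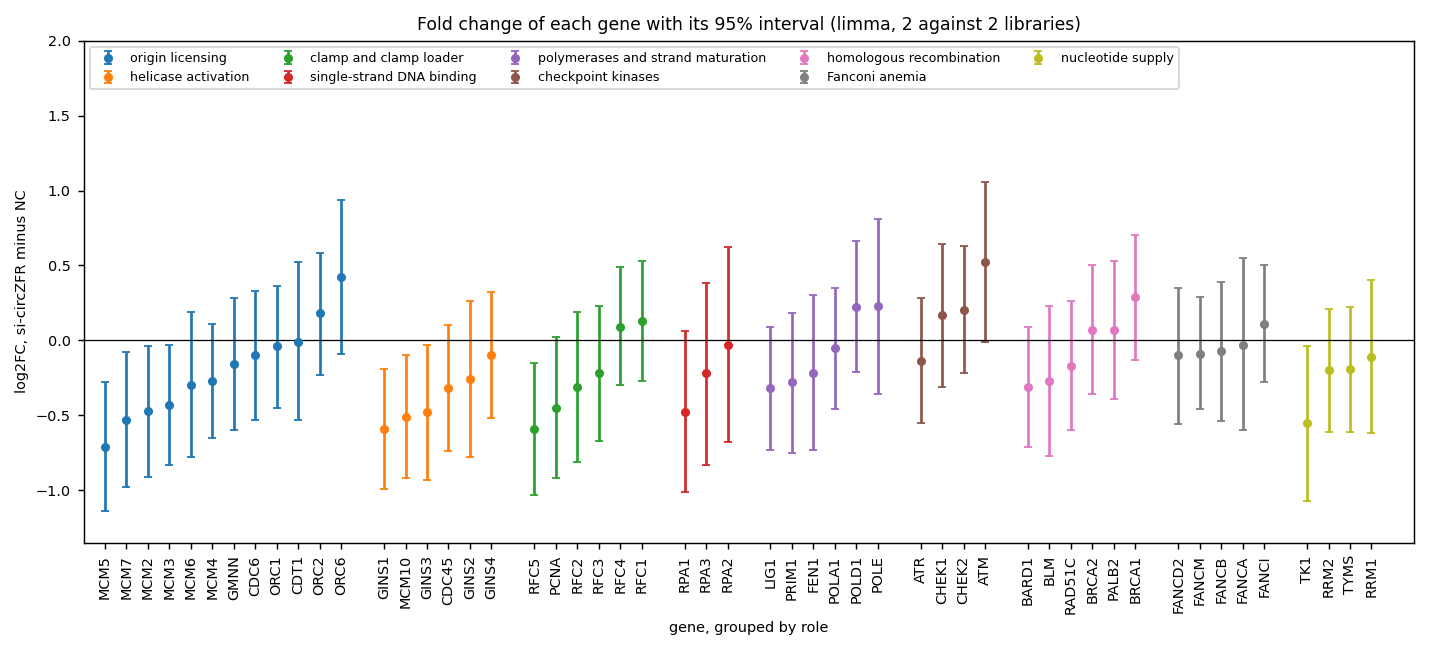
Log2 fold change (si-circZFR minus NC, y axis) of each of the 52 genes on the x axis, grouped and coloured by role, with 95% intervals from limma over 2 against 2 libraries. *MCM5* lies lowest at −0.71, followed by *GINS1* and *RFC5* at −0.59, while *ATM* lies highest at 0.52, and 25 instead of 39 of the genes are below 0 without scaling between libraries.

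Among the 12 licensing genes, the MCM ring genes lay lower after knockdown, while most loader genes overlapped between groups. *MCM5*, a ring subunit, was at 59.3 and 69.0 in NC and at 41.5 and 36.3 in si-circZFR (64.2 ± 6.91 against 38.9 ± 3.65, SD, n = 2), a log2FC of −0.71 (SE 0.18, FDR 0.0992). *MCM7*, the most abundant subunit, was at 101 and 118 in NC and at 77.5 and 73.6 in si-circZFR (log2FC −0.53, SE 0.19, FDR 0.172). *MCM2*, whose N-terminal tail also binds histones, was at 33.1 and 41.8 against 26.6 and 26.3 (log2FC −0.47, SE 0.18, FDR 0.191). In each of these, both knockdown libraries were below both controls, and the same held for *MCM3* (33.1 and 35.7 against 23.5 and 27.2, FDR 0.202) and *MCM4* (35.8 and 37.2 against 29.4 and 30.9, FDR 0.364). *MCM6* overlapped at the margin, with 28.1 and 33.6 in NC and 21.5 and 28.7 in si-circZFR.

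The genes that place the ring gave no such pattern. *ORC1* was at 7.83 and 8.03 in NC and 7.99 and 7.37 in si-circZFR. *CDC6* (log2FC −0.10), *CDT1* (−0.01) and *GMNN*, which encodes the CDT1 inhibitor geminin (−0.16), all overlapped between groups. *ORC6* was at 6.17 and 7.10 against 7.64 and 11.1 (log2FC 0.42, SE 0.22, FDR 0.299). *ORC6* and *ORC2* (11 and 12 against 12.2 and 14.0) were the licensing genes with both knockdown libraries above both controls. In all, 10 of 12 licensing genes were below 0 (against 49.7% of all genes tested), or 6 of 12 without scaling (against 33.9%). At p under 0.05, 4 were lower (33.3%, against 11.8% of all genes tested).

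The 6 genes of helicase activation were all below 0, 5 of them also without scaling, with a median log2FC of −0.40. *GINS1*, a subunit of the GINS complex, was at 10.4 and 9.80 in NC and at 6.36 and 6.39 in si-circZFR (10.1 ± 0.410 against 6.37 ± 0.0177, SD, n = 2), a log2FC of −0.59 (SE 0.17, FDR 0.117). *MCM10*, a fork factor that helps to activate the helicase, was at 9.47 and 8.84 against 6.40 and 5.85 (log2FC −0.51, SE 0.17, FDR 0.154). *GINS3* was at 5.95 and 6.44 against 3.69 and 4.66 (log2FC −0.48, SE 0.19, FDR 0.200). For these and for *CDC45* (9.42 and 10.2 against 7.06 and 8.31), the groups did not overlap. *GINS2* (26.4 and 39.3 against 25.9 and 27.6) and *GINS4* (6.04 and 6.51 against 5.47 and 6.10) overlapped.

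The 11 subunits of the CMG helicase (MCM2 to MCM7, CDC45 and GINS1 to GINS4) were set together after their values were seen, and the grouping carries no test. All 11 had a log2FC below 0 (10 of 11 without scaling, where *GINS4* was at 0.06), with a median of −0.43. Of the 11, 6 had p under 0.05 (against 11.8% of all genes tested) and 8 had groups that did not overlap (against 27.9%). Without scaling these counts were 1 (against 7.0% of all genes) and 6 (against 17.5%). The 41 other genes had a median of −0.10, with 28 below 0 and 13 above. The subunits did not move in exact proportion. The ratio of *MCM5* to *MCM6* was 2.11 and 2.05 in NC and 1.93 and 1.27 in si-circZFR, and that of *MCM7* to *MCM6* was 3.60 and 3.52 against 3.60 and 2.57, so for both ratios it was si-circZFR 2 that stood apart.

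**Figure D2:**
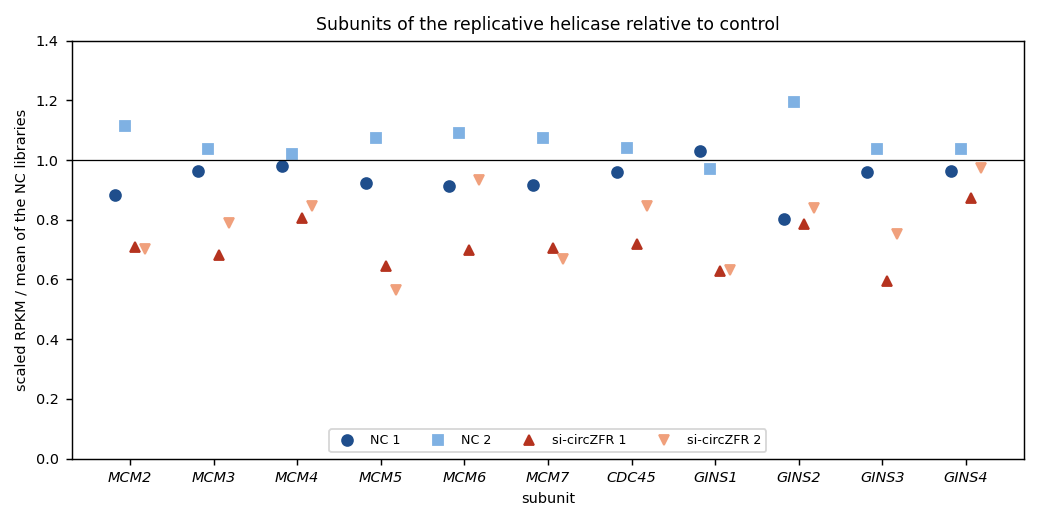
Level of each CMG subunit (x axis) in the 4 libraries, as scaled RPKM divided by the mean of the NC libraries (y axis, starting at 0), with 1 point per library. The si-circZFR triangles lie below 1 for every subunit under this scaling (log2FC −0.10 to −0.71), and the groups are apart for 8 of the 11.

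**Figure D3:**
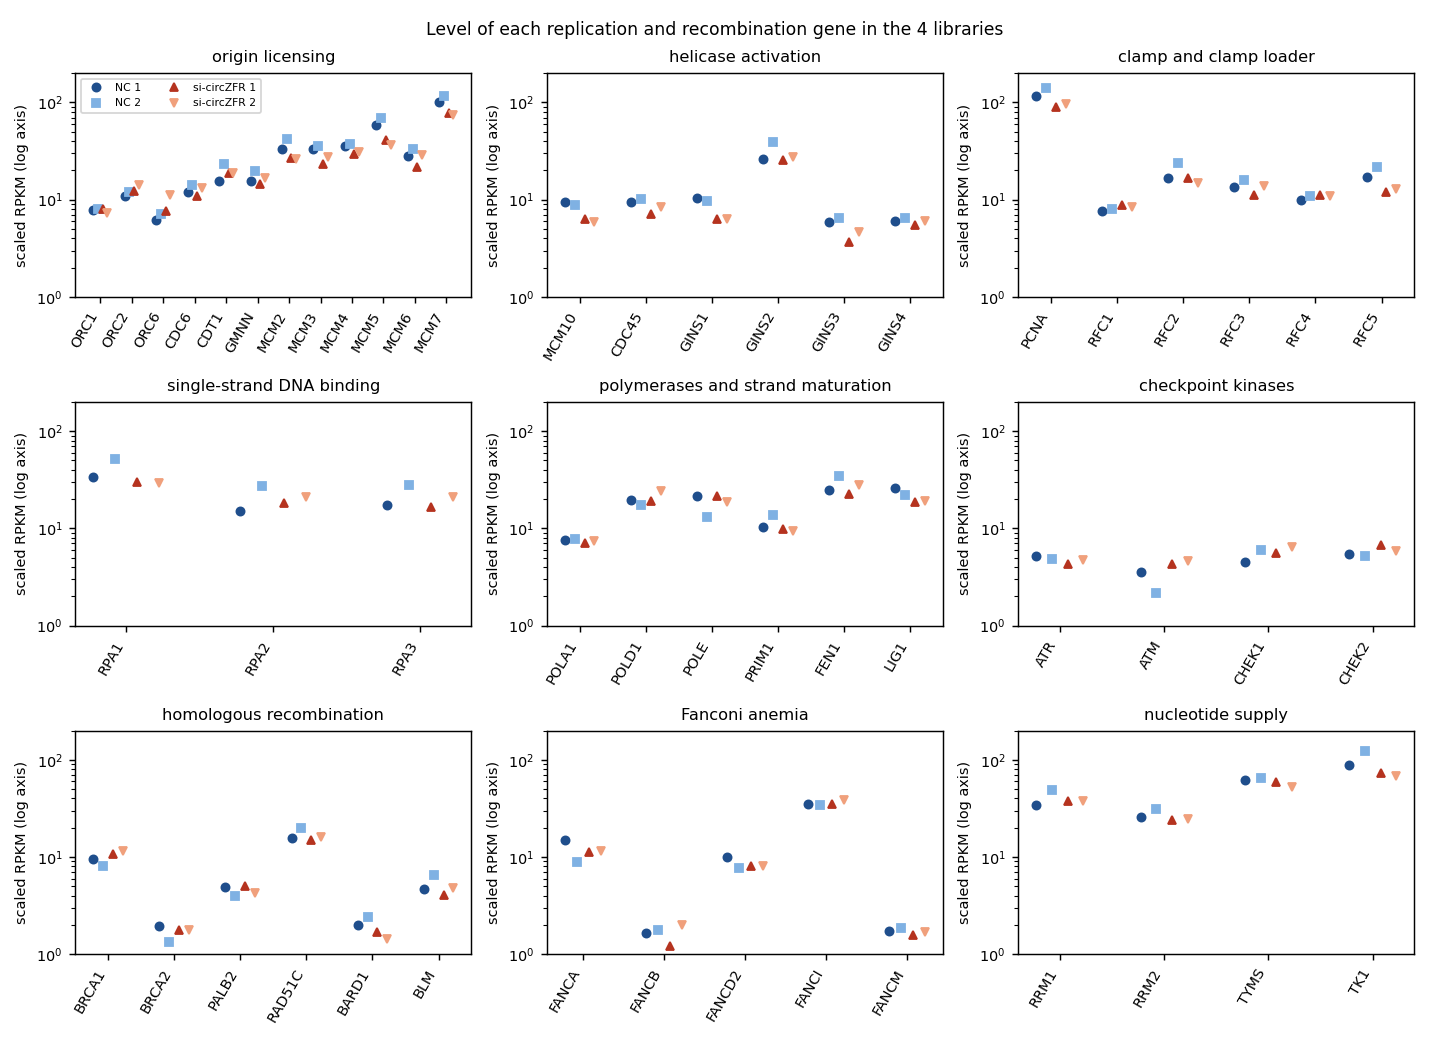
Scaled RPKM (y axis, log scale) of all 52 genes in the 4 libraries, with 1 panel per role and 1 point per library. Mean levels run from 1.66 (*FANCB*) to 112 (*PCNA*), and NC 2 stands apart from the other 3 libraries for several genes, among them *RPA1*, *ATM* and *POLE*.

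Of the clamp and its loader, *RFC5* and *PCNA* lay below both controls and the largest loader subunit did not. *RFC5*, a small subunit of the loader replication factor C, was at 17.1 and 21.9 in NC and at 12.1 and 12.9 in si-circZFR (log2FC −0.59, SE 0.19, FDR 0.137). *PCNA*, the sliding clamp that tethers polymerases to DNA, was at 118 and 141 against 90.8 and 97.5 (log2FC −0.45, SE 0.20, FDR 0.241). *RFC2* was at 16.6 and 23.8 against 16.8 and 15.0 (log2FC −0.31, SE 0.21, FDR 0.422), so only NC 2 lay well above the rest. *RFC3* overlapped between groups (−0.22), whereas *RFC1* (7.57 and 7.96 against 8.77 and 8.41) and *RFC4* (9.86 and 10.8 against 11.1 and 11) had both knockdown libraries above both controls by small margins. With and without scaling, 4 of the 6 genes were below 0.

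The genes of the RPA trimer, which coats single-stranded DNA, differed more between the controls than between the groups. *RPA1* was at 33.8 and 51.1 in NC and at 30 and 29.1 in si-circZFR (log2FC −0.48, SE 0.22, FDR 0.264), so that NC 1 was nearer to the knockdown libraries than to NC 2. *RPA2* was at 15.0 and 27.0 against 18.4 and 21.2 (log2FC −0.03, SE 0.27, FDR 0.957). *RPA3* was at 17.2 and 27.9 against 16.6 and 20.9 (log2FC −0.22, SE 0.25, FDR 0.638). All 3 subunits were higher in NC 2 than in NC 1, by 0.58, 0.81 and 0.67 on the log2 scale. Without NC 2, the log2FC was −0.19 for *RPA1*, 0.37 for *RPA2* and 0.11 for *RPA3*, and *RPA2* was at 0.15 without scaling.

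The polymerases and the genes that finish new strands differed little. *LIG1*, the ligase that seals Okazaki fragments, was at 26.1 and 21.9 in NC and at 18.6 and 19.3 in si-circZFR (log2FC −0.32, SE 0.17, FDR 0.313). *PRIM1*, the catalytic primase subunit, was at 10.3 and 13.8 against 9.82 and 9.47 (log2FC −0.28, SE 0.20, FDR 0.431). *POLD1*, the catalytic subunit of the lagging strand polymerase, was at 19.5 and 17.4 against 19.3 and 24.3 (log2FC 0.22, SE 0.18, FDR 0.506). Its leading strand counterpart *POLE* was at 21.7 and 13.2 against 21.3 and 18.8, a case in which NC 2 alone was low. *POLA1* (log2FC −0.05) and the flap nuclease gene *FEN1* (−0.22) completed the group, in which 4 of 6 genes were below 0, or 3 of 6 without scaling.

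The checkpoint kinases had a median above 0 (0.18), the only role list to do so under this scaling. Without scaling, the polymerases (0.04), homologous recombination (0.10) and Fanconi anemia genes (0.07) were above 0 too. They lay below the median of all genes in that setting (0.15), whereas the checkpoint kinases were at 0.35. *ATM*, the kinase that responds to double-strand breaks, was at 3.58 and 2.16 in NC and at 4.28 and 4.65 in si-circZFR (log2FC 0.52, SE 0.23, FDR 0.234), the largest positive difference of the 52 genes. *CHEK2*, its effector kinase, was at 5.50 and 5.18 against 6.74 and 5.86 (log2FC 0.20, SE 0.18, FDR 0.538). *CHEK1* was at 4.54 and 5.93 against 5.51 and 6.45 (log2FC 0.17, SE 0.20, FDR 0.652). *ATR*, the kinase of stalled forks upstream of *CHEK1*, was at 5.23 and 4.85 against 4.31 and 4.69 (log2FC −0.14). Only *ATR* was below 0 and none of the 4 was without scaling. *ATM* has the longest transcript of the list, and its log2FC was 0.26 without NC 2 and 0.79 without NC 1.

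Homologous recombination genes were split, with 3 below and 3 above 0 (2 and 4 without scaling) and a median of −0.05. *BARD1*, the heterodimer partner of BRCA1, was at 1.98 and 2.40 in NC and at 1.69 and 1.44 in si-circZFR (log2FC −0.31, SE 0.17, FDR 0.317). *BRCA1* itself was at 9.64 and 8.16 against 10.7 and 11.4 (log2FC 0.29, SE 0.18, FDR 0.373). The partners thus lay on opposite sides of their controls, each without overlap, though neither difference passed the test. *BLM*, a helicase that unwinds recombination intermediates, was at 4.66 and 6.45 against 4.05 and 4.75 (log2FC −0.27, SE 0.21, FDR 0.480). *BRCA2*, a recombination mediator, was at 1.96 and 1.32 against 1.76 and 1.76, and its knockdown values lay between those of the controls. *PALB2* (log2FC 0.07) and *RAD51C* (−0.17) overlapped as well.

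The Fanconi anemia genes were the flattest group, with log2FC from −0.10 to 0.11 and 4 of 5 below 0, but none without scaling. *FANCI* was at 34.7 and 34.0 in NC and at 35.4 and 38.9 in si-circZFR (log2FC 0.11, SE 0.16, FDR 0.726). *FANCD2*, whose product pairs with FANCI and is ubiquitinated at stalled forks, was at 10.0 and 7.62 against 8.07 and 8.11 (log2FC −0.10, SE 0.19, FDR 0.785). *FANCM*, a DNA translocase that recruits the core complex, was at 1.73 and 1.85 against 1.56 and 1.70 (log2FC −0.09, SE 0.16, FDR 0.778). *FANCI* was thus the more abundant of the pair by a wide margin in every library. *FANCA* (14.9 and 8.98 against 11.3 and 11.4) and *FANCB* (1.66 and 1.76 against 1.21 and 2.0) overlapped between groups.

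All 4 nucleotide supply genes were below 0 (3 of 4 without scaling), with *TK1* the lowest. *TK1*, the S phase thymidine kinase of the salvage pathway, was at 88.5 and 123 in NC and at 72.8 and 68.7 in si-circZFR (106 ± 24.2 against 70.8 ± 2.94, SD, n = 2), a log2FC of −0.55 (SE 0.22, FDR 0.200). Without NC 2 the log2FC of *TK1* was −0.32, and without NC 1 it was −0.79. *TYMS*, which makes dTMP, was at 61.6 and 65.4 against 58.9 and 52.0 (log2FC −0.19, SE 0.18, FDR 0.547). *TYMS* overlaps *ENOSF1* on the other strand, and whether counting used strand is not given in the sources used here. *RRM2*, the regulated subunit of ribonucleotide reductase, was at 25.8 and 31.0 against 24.3 and 24.6 (log2FC −0.20, SE 0.17, FDR 0.522). Its partner *RRM1* was at 34.2 and 49.4 against 38.0 and 38.0, with NC 2 alone high. The ratio of *RRM1* to *RRM2* was 1.33 and 1.59 in NC and 1.56 and 1.55 in si-circZFR.

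The controls differed from each other in a way that followed transcript length, taken here as the smallest length at which the RPKM values of a gene give whole reads. For *POLD1* and *FEN1* that length was multiplied by 2 and by 6, because a known coding transcript fitted the multiple. Across the 52 genes, Spearman's rho between transcript length and the difference NC 2 minus NC 1 was −0.626 (Pearson's r −0.648), against −0.384 over all genes tested. The extremes were *POLE* at −0.68, *FANCA* at −0.67 and *ATM* at −0.54 among long transcripts, and *RPA2*, *RPA3* and *GINS2* at 0.81, 0.67 and 0.56 among short ones. The 13 shortest genes (1180 to 1968 bases) had a median of 0.40 and the 13 longest (4749 to 13275 bases) of −0.09. Of the longest, 8 were lower in NC 2, and of the shortest, 0. Between the si-circZFR libraries rho was −0.131. Genes are not independent replicates and every point shares the same libraries, so these are descriptions.

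**Figure D4:**
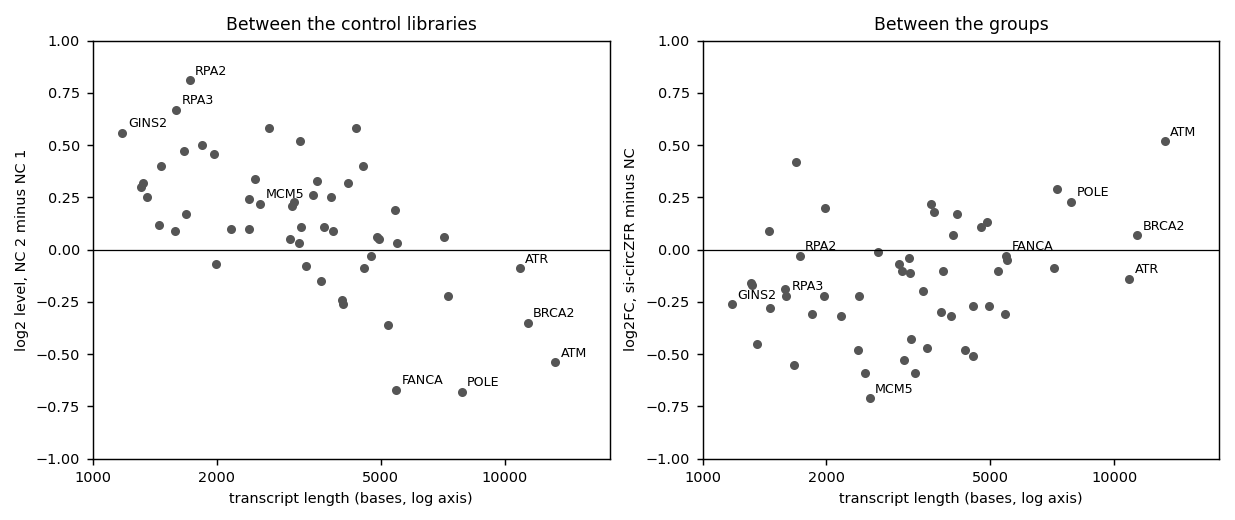
Transcript length (x axis, bases, log scale) of the 52 genes against the log2 difference NC 2 minus NC 1 (left) and against the log2FC of si-circZFR minus NC (right), with 1 point per gene. The left panel slopes down (rho −0.626), with *RPA2* highest at 0.81 and *POLE* lowest at −0.68, and the right panel slopes weakly up (rho 0.298).

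The log2FC followed length with a rho of 0.298 over the 52 genes, of −0.0966 without NC 2 and of 0.483 without NC 1. After a smooth correction for length over all genes, the median log2FC of the list was −0.15, 37 genes were below 0, and 12 were lower (against 10.5% of all genes in that fit) and 1 higher (*ORC6*, against 11.4%) at p under 0.05. The corrected log2FC was −0.70 for *MCM5* (FDR 0.0794), −0.45 for *TK1* (FDR 0.193) and 0.38 for *ATM* (FDR 0.276). All 11 CMG subunits stayed below 0, 7 of them at p under 0.05.

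How far the list lay below the controls depended on which control library was used. The median over the 52 genes was −0.10 for si-circZFR 1 and −0.04 for si-circZFR 2 against NC 1, but −0.33 and −0.24 against NC 2. The median of NC 2 minus NC 1 was 0.12, larger than either difference from NC 1. The CMG subunits had medians of −0.37 and −0.27 against NC 1 and of −0.59 and −0.39 against NC 2, while NC 2 minus NC 1 was 0.11. As this group was formed after its low values were seen, that its medians exceed the gap between the controls is no sign of stability. All 11 were lower in 3 of these 4 pairings of libraries and 8 of 11 in si-circZFR 2 against NC 1. Without NC 1, 6 genes passed FDR under 0.05 in limma (*MCM2*, *MCM5*, *RFC5*, *RPA1*, *TK1* and, higher, *ATM*), which was 11.5% of the list against 16.0% of all genes in the same fit. Without any of the other libraries none of the list did.

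**Figure D5:**
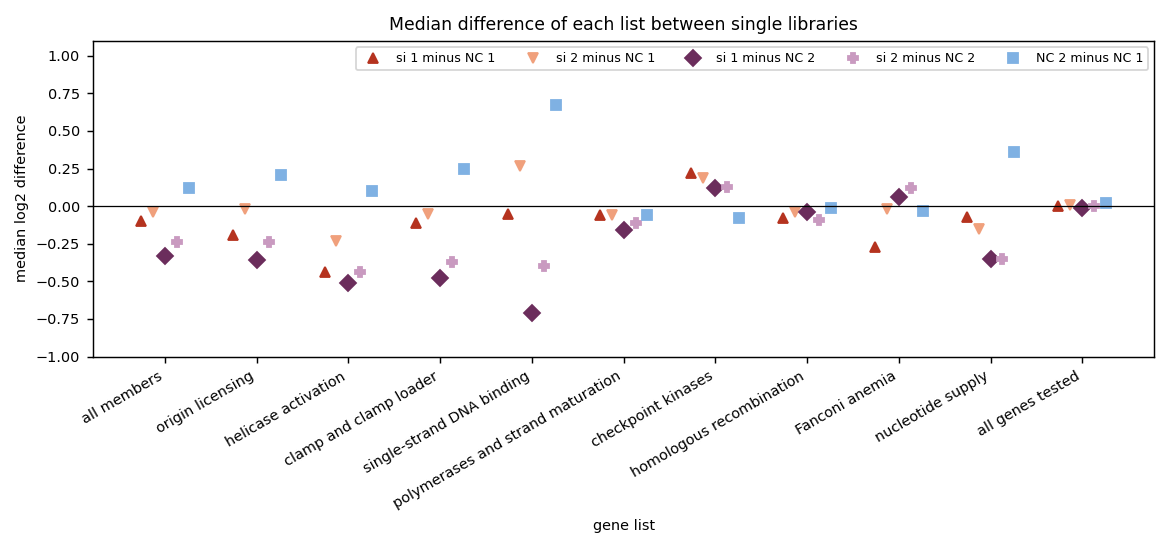
Median log2 difference (y axis) between single libraries for each role list, all 52 genes and all genes tested (x axis), with 1 symbol per pair of libraries. For helicase activation, every knockdown library lies below every control in the median under this scaling ( −0.23 to −0.51) while NC 2 minus NC 1 is 0.10, and for single-strand DNA binding NC 2 minus NC 1 is 0.67.

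Genes of the list whose promoter held an E2F word had a median log2FC of −0.26, with 16 of 17 below 0 (11 of 17 without scaling). The 29 without one had a median of −0.11, with 18 below 0 (11 of 29 without scaling). Over all tested genes with a promoter the medians were −0.02 with a word and 0.02 without. No test was made of these differences.

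Further genes of the same pathways were taken from lists written from general knowledge of these pathways: 36 origin and fork genes, 29 checkpoint and repair genes and 11 nucleotide supply genes. Of these 76, 75 were tested (*PRIM2* was not listed in the files), 0 passed the threshold, and 42 were below and 33 above 0 (27 and 48 without scaling), with a median of −0.08. At unadjusted p under 0.05, 11 were lower (14.7%, against 11.8% of all genes tested) and 5 higher (6.67%, against 10.5%). Without scaling, 1 of the 75 was lower and 9 were higher, against 7.0% and 17.1% of all genes. Both shares thus lay below those of all genes in that setting. The smallest p belonged to *CTPS1*, which makes CTP from UTP, at 46.7 and 48.3 in NC and 27.3 and 27.9 in si-circZFR (log2FC −0.76, SE 0.16, FDR 0.0711). *MUS81*, a nuclease that cuts stalled forks and recombination intermediates, was at 9.81 and 10.3 against 17.1 and 16.7 (log2FC 0.69, SE 0.16, FDR 0.0848). Both differences were many times the gap between replicates. As these genes were picked by small p, which favours small gaps, that carries no weight.

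The next 3 genes by p lay lower after knockdown. *HUS1*, a subunit of the checkpoint clamp, was at 3.51 and 3.68 against 2.26 and 1.83 (log2FC −0.59, SE 0.18, FDR 0.124). *WDHD1*, which links the helicase to polymerase alpha, was at 4.51 and 4.98 against 2.54 and 3.08 (log2FC −0.60, SE 0.18, FDR 0.131). *POLE2*, the second subunit of the leading strand polymerase, was at 5.14 and 6.76 against 3.30 and 3.59 (log2FC −0.64, SE 0.20, FDR 0.133). *POLE2* and *WDHD1* were picked by small p among the 75 genes tested, and the CMG group was formed after its values were seen. That they share a direction therefore carries no weight.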

How the data were processed

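RNA was extracted with TRIzol and sequenced on the Ion Proton from 2 NC and 2 si-circZFR libraries. The authors aligned the reads to hg38 according to the methods, whereas the labels' processing notes name GRCh37, and deposited RPKM per gene. The methods name SVA and edgeR, and the aligner, annotation and counter are not given in the sources used here. Library totals of 11040050 to 12816868 reads were recovered from small RNA genes of known length, and whole reads were found for 24282 of 24289 genes above 0 (99.97%). The length was free for each gene, and for *POLD1* and *FEN1* the reads are only a lower bound.

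The RPKM of each library was divided by an unweighted trimmed-mean factor (0.886 to 1.11, trimming 30% of log ratios and 5% of levels). Testing by limma covered genes whose reads exceeded 1 CPM in 2 or more libraries (two-sided, trended prior variance) on log2(scaled RPKM + 1), with FDR by Benjamini-Hochberg. The genes, lists and settings were chosen with earlier results of these data known. Named are the 3 genes of each of the 9 role lists and the 5 of the other pathway genes with the smallest p, and the other genes of the list are given more briefly. A marker that bears on the cell line is not reported here. Alternatives covered scaling, filter, pseudocount, replicate block, length, prior, limma-voom on recovered reads, the genes kept and each library left out. The software was R 4.3.3 with limma 3.58.1, and Python 3.11.15 with pandas 2.3.3, numpy 2.4.6, matplotlib 3.10.9 and scipy 1.17.1.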

Additional observations from a re-analysis of the deposited data

How the results depend on the processing

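No gene of the list passed FDR and fold together under any of the 16 alternatives, limma-voom included. The 9 genes with p under 0.05 were lower in every one. They were picked by p in these same libraries, so that they kept their direction is no sign of stability. Without scaling, 1 of the 9 kept p under 0.05 in limma. The direction held in every alternative for 22 lower and 10 higher genes and varied for the other 20. Over all genes, limma called 148, against 255 without scaling (93 lower and 162 higher, against 92 and 56), 8 with a filter on RPKM, 0 without a filter (1946 lower and 1693 higher at unadjusted p under 0.05), 58 with a pseudocount of 0.1, 33 without the trend, 366 by limma-voom, 276 with the replicate block, 381 with block and length correction, and 0 to 1011 when a library was left out (1011 without NC 1, 0 without NC 2 with 1454 lower and 1500 higher at unadjusted p under 0.05, 20 without si-circZFR 2). Replicates shared only a number (correlation of same-numbered deviations 0.0852), and the block left 9 genes of the list lower at p under 0.05. Block and length correction together gave 1 gene past FDR (*MCM5*, 0.0368), and leaving out a library 0 to 6.

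Lower genes at p under 0.05 numbered 1 without scaling and 0 to 17 with a library left out (17 without NC 1, 6 without NC 2, 1 without si-circZFR 1, 0 without si-circZFR 2). Higher genes numbered 2 without scaling (3.85%, against 17.1% of all genes) and 1 by limma-voom (against 11.6%). With length correction the number was 1, with or without block (against 11.4% of all genes without block and 2023 of 14791 with it). Without pseudogenes, ribosomal protein and mitochondrial genes it was 1, against 1645 of the 13311 genes in that fit. The median log2FC was 0.02 without scaling and −0.30 to −0.07 with a library left out. Of the 20 genes of the list whose direction varied, only those named for the smallest p of their role are given here. The sign turned for *RPA3* without NC 2 (0.11, against −0.56 without NC 1) and for *FANCM* without scaling (0.04). For *FANCD2* it turned without scaling (0.07) and without NC 1 (0.08, against −0.28 without NC 2). For *RPA2* it turned without scaling (0.15) and with length correction (0.06, with block 0.06). It also turned for *RPA2* without NC 2 (0.37, against −0.43 without NC 1) and without si-circZFR 1 (0.07). The causes were not tested. With 1 library left in a group, that library is assumed to vary like the others.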
